A study of Mus musculus with 18 samples.

Results

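The genes described here form the hepatocyte growth factor (HGF) system of mouse liver cells: the ligand Hgf, the receptors Met and Mst1r, the activating proteases Hgfac and St14, and the Kunitz-type inhibitors Spint1 and Spint2. They were taken by symbol from the deposited table of estimated counts, and all 7 were found among its 35667 genes. Their Ensembl identifiers in the table are ENSMUSG00000028864 (Hgf), ENSMUSG00000009376 (Met), ENSMUSG00000032584 (Mst1r), ENSMUSG00000029102 (Hgfac), ENSMUSG00000031995 (St14), ENSMUSG00000027315 (Spint1) and ENSMUSG00000074227 (Spint2).

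The libraries came from hepatic stellate cells (HSC), pericytes of the liver sinusoids that store vitamin A, and from intrahepatic cholangiocyte organoids (ICO), bile duct epithelium grown as hollow spheres. There were 6 groups of 3 libraries. HSC were cultured for 7 days together with ICO in Matrigel (co-culture), by themselves in Matrigel, or by themselves on plastic, or were taken at day 0 without culture. ICO were cultured for 7 days in Matrigel, either together with HSC or by themselves. The HSC were from healthy wild-type mice and the ICO carried dTomato, a red fluorescent tag. The Matrigel cultures were sorted at day 7, per the series' design text. Matrigel is a gel of basement membrane proteins. The growth protocol given for all groups lists HGF itself, EGF, FGF10 and RSPO3 in the medium, beside fetal serum. By that text the cultured cells were exposed to added HGF protein, while day 0 HSC had no culture. The text is the same for every group, so it does not show which medium a single group had. No labels name separate animals, cultures or organoid lines for the 3 libraries of a group. Co-cultured HSC and ICO libraries of the same number carry the same culture code in their titles, so they may come from the same gels. The p-values therefore rest on the spread among the 3 libraries of each group, and that spread may be technical.

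HGF is made by mesenchymal cells as an inactive single chain. It activates Met, a receptor tyrosine kinase of epithelial cells, once a serine protease has cleaved it. HGF activator (Hgfac), a plasma protease made mainly by hepatocytes, and matriptase (St14), a transmembrane protease of epithelia, can make that cleavage, and the membrane-bound Kunitz inhibitors Spint1 and Spint2 (HAI-1 and HAI-2) block both proteases. In the liver, stellate cells are a known source of HGF, which drives growth of hepatocytes and biliary cells. Mst1r, also called Ron, is the relative of Met that binds macrophage-stimulating protein (Mst1).

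Depth lay between 6907479 estimated counts (co-cultured HSC, replicate 1) and 22158674 (plastic HSC, replicate 2), and 19057 to 22512 genes had at least 1 count per library. Levels are CPM, counts relative to library size scaled by TMM over the 18 libraries. The labels were checked against 20 stellate and 28 cholangiocyte markers. Summed stellate markers reached 21665 to 36814 CPM in co-cultured HSC, 36042 to 64443 CPM in Matrigel HSC, 11415 to 18372 CPM in plastic HSC and 99806 to 114438 CPM at day 0, against 1033 to 1225 CPM in co-cultured ICO and 783 to 897 CPM in ICO alone. Summed cholangiocyte markers were 7939 to 13538 CPM in co-cultured HSC and 1713 to 9433 CPM in HSC labelled as alone in Matrigel, but only 224 to 404 CPM on plastic and 275 to 296 CPM at day 0; both ICO groups had 25823 to 32341 CPM. An organoid share, the median over 13 biliary genes of a library's level as a percentage of the ICO mean of the same culture, was 28.0%, 14.5% and 41.9% in co-cultured HSC replicates 1 to 3 and 34.3%, 13.4% and 2.96% in Matrigel HSC replicates 1 to 3. No day 0 or plastic library exceeded 0.236%. The single genes of that median ran from 0.596% to 26.4% in Matrigel HSC replicate 3. Epithelial transcripts in the 6 Matrigel HSC libraries, 3 of them labelled as mono-culture, were read beside each epithelial gene below, and results are given with the share subtracted where that changes them.

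Promoter sequences are shown because Spint1 and Spint2 were highest in the epithelial libraries while Hgf was highest in the stellate ones. Met, Mst1r and St14 were also highest in ICO. The 250 bases before the transcription start are from RefSeq on build GRCm38.p6, an older build than the GRCm39 named in the submitters' processing notes, and 6 of the 7 genes matched by symbol (St14 is named only). Capitals mark matches to GGGCGG or CCGCCC (the GC box on either strand) and to TTNCNNAA or TTNNGNAA (the core bound by C/EBP factors, on either strand). Hgf has 2 start sites in the table, and the upstream one is shown.
Hgf, chr5:16553245-16553494, plus strand: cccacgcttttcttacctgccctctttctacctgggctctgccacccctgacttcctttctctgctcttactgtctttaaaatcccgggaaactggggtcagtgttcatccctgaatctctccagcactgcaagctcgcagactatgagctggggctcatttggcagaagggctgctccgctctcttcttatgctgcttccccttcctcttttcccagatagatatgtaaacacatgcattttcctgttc
Hgfac, chr5:35041259-35041508, plus strand: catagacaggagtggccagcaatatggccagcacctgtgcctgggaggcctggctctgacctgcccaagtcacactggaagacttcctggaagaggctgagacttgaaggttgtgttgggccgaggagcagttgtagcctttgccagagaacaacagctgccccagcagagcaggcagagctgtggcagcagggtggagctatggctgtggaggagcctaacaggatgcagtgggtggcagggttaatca
Spint1, chr2:119237110-119237359, plus strand: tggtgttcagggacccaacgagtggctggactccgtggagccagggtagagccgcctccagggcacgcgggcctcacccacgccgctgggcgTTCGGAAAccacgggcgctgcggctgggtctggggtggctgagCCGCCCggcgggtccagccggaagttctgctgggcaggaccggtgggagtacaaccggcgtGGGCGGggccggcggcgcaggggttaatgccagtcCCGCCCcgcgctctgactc
Spint2, chr7:29281978-29282227, minus strand: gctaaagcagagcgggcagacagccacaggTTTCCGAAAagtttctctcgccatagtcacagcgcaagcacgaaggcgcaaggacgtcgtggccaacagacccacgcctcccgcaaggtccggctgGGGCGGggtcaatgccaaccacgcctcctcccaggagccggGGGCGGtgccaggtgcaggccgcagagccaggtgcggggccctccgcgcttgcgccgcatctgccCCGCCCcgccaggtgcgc

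Spint1 and Spint2 each held 3 GC boxes, starting at positions -115, -54 and -19 in Spint1 and -124, -83 and -18 in Spint2, counted back from the start site. Both also held a C/EBP core, at -158 in Spint1 and as overlapping matches at -220 and -219 in Spint2. The Hgfac window and the shown Hgf window held neither motif, while the window of the other Hgf start site held a C/EBP core at -183. G and C made up 72.8% of the Spint1 window and 69.6% of the Spint2 window, against 50.8% for Hgf and 58.4% for Hgfac, where the median over 32851 promoters of this length was 52.4%. Met, at 74.0%, also had 3 GC boxes. Mst1r has 2 start sites in the table. One window, at 57.6%, held GC boxes at -71 and -59 and a C/EBP core at -167. The other, at 56.4%, held neither motif. The GC box occurred in 32.7% and the C/EBP core in 36.8% of all promoters, so single matches are common. A TATA box (TATAAA) and a grainyhead core (AACNNGTT, which is its own reverse complement) were also searched on both strands, and no window of the 6 genes held either; they occur in 12.4% and 3.64% of promoters.

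**Figure D1:**
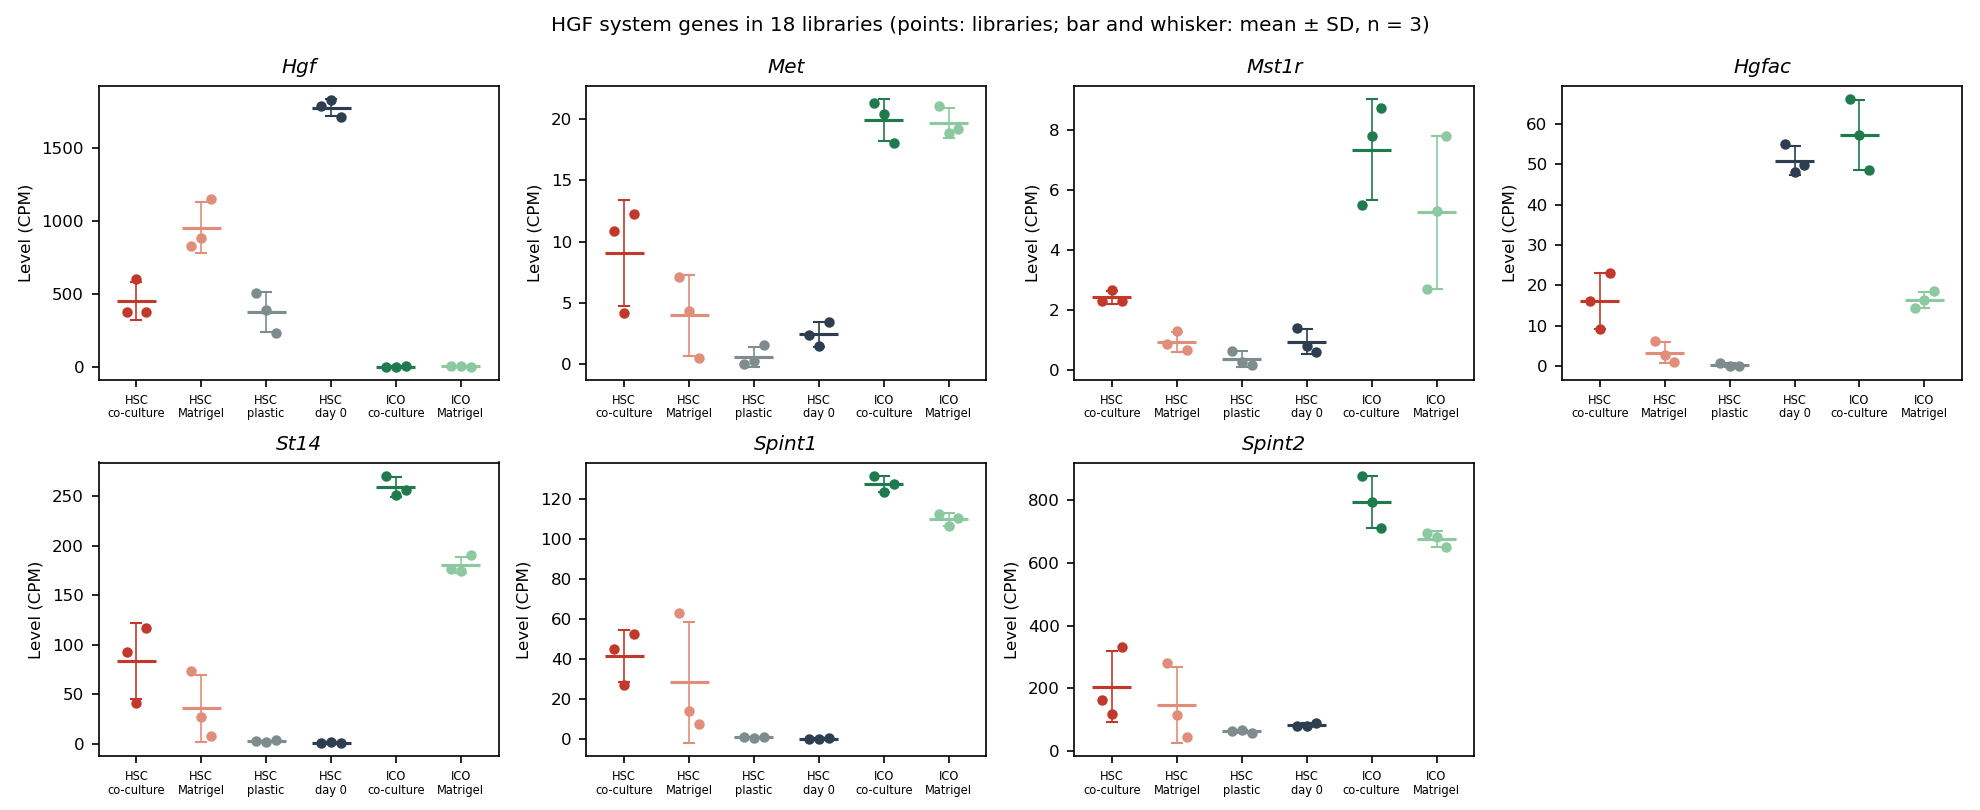
Levels (CPM, linear axis) of the 7 HGF system genes in each of 18 libraries; points are libraries, and bars and whiskers are the mean ± SD of 3. Hgf is high in HSC groups and near 0 in ICO groups, while Met, Mst1r, St14, Spint1 and Spint2 are highest in ICO, and Hgfac is high at day 0 and in co-cultured ICO.

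Hgf was found in the HSC libraries, highest in freshly isolated HSC and lower in every 7-day culture, and was near 0 in ICO. Co-cultured HSC had 378, 603 and 378 CPM, Matrigel HSC had 826, 884 and 1151 CPM, plastic HSC had 507, 389 and 230.2 CPM, and day 0 HSC had 1788, 1827 and 1714 CPM. The day 0 libraries lay above all cultured ones, and Matrigel HSC lay above plastic and co-cultured HSC, which overlapped. In ICO, Hgf had 0, 0.484 and 1.25 CPM in co-culture and 1.35, 2.34 and 0 CPM alone, at most 30 counts in a library. In bulk libraries, fewer cells of a type and less RNA per cell cannot be told apart.

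Against day 0, Hgf fell 4.52-fold on plastic (log2 -2.18 ± 0.27 SE, adjusted p = 1.59e-05, edgeR quasi-likelihood test with Benjamini-Hochberg adjustment, used throughout). It fell 3.79-fold in co-culture (log2 -1.92 ± 0.27, adjusted p = 5.53e-05). The decrease in Matrigel alone was smaller, at 1.85-fold (log2 -0.89 ± 0.26, adjusted p = 0.0164), and this call was lost without Matrigel HSC replicate 1 (-0.79, adjusted p = 0.0565) or replicate 2 (-0.84, adjusted p = 0.0576), with all 18 libraries in 1 fit (adjusted p = 0.170) and with the organoid share subtracted (-0.59, adjusted p = 0.0602). Its adjusted p ranged from 0.00171 to 0.170 over 14 alternatives. Stellate markers as a whole also fell in culture: 16 of 20 were lower on plastic than at day 0, 13 of 20 in Matrigel and 16 of 20 in co-culture, beside 30.5%, 21.5% and 24.8% of all genes tested. Endothelial and hepatocyte markers fell with them, while macrophage, mesothelial and portal markers did not fall in every culture. All 18 endothelial markers were lower than at day 0 in each of the 3 cultures, and their sum was 914 to 1109 CPM on plastic, 1201 to 1856 CPM in Matrigel and 479 to 746 CPM in co-culture, against 4454 to 4518 CPM at day 0. Hepatocyte markers were lower in 24 of 24 on plastic, 23 of 24 in Matrigel and 24 of 24 in co-culture. Macrophage markers summed to 946 to 1006 CPM at day 0. They were at 114 to 516 CPM on plastic, 2521 to 3465 CPM in Matrigel and 145 to 225 CPM in co-culture. Mesothelial and portal markers summed to 106 to 119 CPM at day 0. They were at 13.2 to 36.4 CPM on plastic, 77.2 to 205 CPM in Matrigel and 322 to 483 CPM in co-culture, beside 659 to 893 CPM in ICO. The part of these other liver cells in the Hgf values was not tested.

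HSC in co-culture had 453 ± 130 CPM of Hgf, against 954 ± 173 CPM in HSC alone in Matrigel (SD, n = 3 each), a 2.05-fold lower level (log2 -1.03 ± 0.26, adjusted p = 0.00967) with no overlap between libraries. The call was lost only with all 18 libraries in 1 fit (-1.04, adjusted p = 0.129) among 14 alternatives, whose adjusted p ranged from 0.000470 to 0.129. With the organoid share subtracted the difference was -0.84 (adjusted p = 0.0122). Stellate markers fell with Hgf here as well, with 12 of 20 lower and 4 higher beside 13.8% and 17.3% of all genes. Reelin (Reln), a marker of quiescent HSC, had 129.9 ± 6.61 CPM in co-culture and 2064 ± 520 CPM alone, and Dcn, a matrix proteoglycan, had 4855 ± 1281 and 21185 ± 6340 CPM in the same order. Macrophage markers summed to 145 to 225 CPM in co-cultured HSC and 2521 to 3465 CPM in Matrigel HSC, and their part in the result was not tested. Compared with plastic HSC, Hgf was 2.44-fold higher in Matrigel HSC (log2 1.29 ± 0.27, adjusted p = 0.00128), while co-culture and plastic did not differ beyond the spread (0.25 ± 0.26, adjusted p = 0.462). With the organoid share subtracted, co-culture was above plastic by 0.75 (adjusted p = 0.0220), and the sign turned to -0.01 and -0.03 without plastic replicate 3 or co-culture replicate 2.

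**Figure D2:**
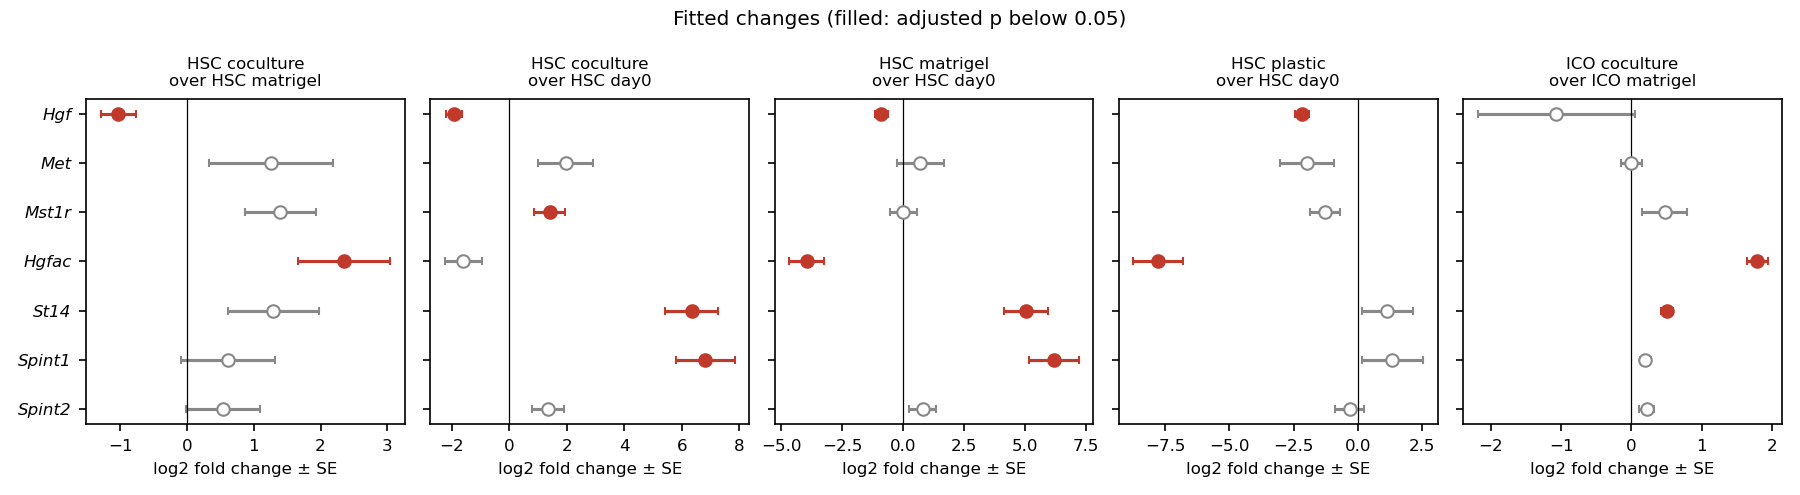
Fitted log2 fold changes ± SE of the 7 genes in 5 comparisons, the first-named group over the second; filled red points had an adjusted p below 0.05. Hgf lies left of 0 in the 4 HSC panels, and Hgfac and St14 are the called genes in ICO.

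The receptor Met was highest in the organoids, with and without HSC. ICO had 21.3, 20.4 and 18.03 CPM with HSC and 21.1, 18.8 and 19.2 CPM alone, which overlap, and the fitted change was -0.00 ± 0.15 (adjusted p = 0.996). In HSC, Met had 10.9, 4.14 and 12.2 CPM in co-culture, 7.09, 4.35 and 0.504 CPM in Matrigel alone, 0, 0.240 and 1.504 CPM on plastic and 2.35, 1.43 and 3.43 CPM at day 0. The 6 HSC libraries from Matrigel held Met in rough step with their organoid share: the co-culture replicates reached 54.6%, 20.8% and 61.3% of the ICO level at shares of 28.0%, 14.5% and 41.9%, and the mono-culture replicates 36.0%, 22.1% and 2.56% at shares of 34.3%, 13.4% and 2.96%. Met was higher in co-cultured than plastic HSC (log2 3.95 ± 1.08, adjusted p = 0.0117), a call lost without plastic replicate 2 (3.51, adjusted p = 0.0519) and with the share subtracted (3.13, adjusted p = 0.0852), over a range of 0.00203 to 0.0852. For Matrigel against plastic HSC (2.70 ± 1.05, adjusted p = 0.0474, libraries overlapping) the call was lost in 8 of 14 alternatives, with adjusted p from 0.00894 to 0.780; these included leaving out plastic replicate 1 (2.11) or 2 (2.26), Matrigel replicate 1 (1.98) or 2 (2.62), and the share subtracted (0.49).

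Met differed between the cell types when each was alone, with 3.98 ± 3.31 CPM in Matrigel HSC and 19.7 ± 1.21 CPM in ICO (log2 -2.24 ± 0.65, adjusted p = 0.0134). Between co-cultured HSC (9.08 ± 4.33 CPM) and co-cultured ICO (19.9 ± 1.71 CPM) the difference of -1.10 ± 0.62 missed the threshold (adjusted p = 0.181), although the libraries did not overlap. With only those 6 libraries in the fit it passed (adjusted p = 0.0352), and with the share subtracted it was -2.02 (adjusted p = 0.0480). Subtraction takes ICO levels of Met out of the HSC libraries, so that last difference was widened by the step itself.

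Mst1r was low everywhere, below 10 CPM in each library. Co-cultured ICO had 5.49, 7.81 and 8.74 CPM against 2.71, 5.30 and 7.80 CPM in ICO alone (log2 0.47 ± 0.32, adjusted p = 0.366). Co-cultured HSC had 2.30, 2.69 and 2.30 CPM, Matrigel HSC 0.869, 1.32 and 0.672 CPM, plastic HSC 0.660, 0.288 and 0.180 CPM and day 0 HSC 1.41, 0.817 and 0.617 CPM, so that the co-culture libraries lay above all other HSC libraries. The rise over day 0 (1.41 ± 0.54, adjusted p = 0.0399) held in 6 of 13 alternatives (adjusted p 0.0187 to 0.928). It was lost without day 0 replicate 2 (1.26) or 3 (1.17), without any 1 co-culture library (1.44, 1.34 and 1.45 for replicates 1 to 3), and its sign turned with the share subtracted (-0.15, adjusted p = 0.928). Co-culture over plastic was 2.68 ± 0.58 (adjusted p = 0.00221), and 1.11 (adjusted p = 0.473) after subtraction. Co-culture over Matrigel alone was 1.40 ± 0.53, short of the threshold (adjusted p = 0.0625). Mst1, the ligand of Mst1r, had 1.45 ± 0.408 CPM in co-cultured HSC, 2.11 ± 0.854 CPM in Matrigel HSC, 5.64 ± 2.14 CPM on plastic and 28.5 ± 3.36 CPM at day 0, and at most 0.855 CPM in any ICO library.

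Hgfac, the plasma HGF activator, rose in organoids that had grown with HSC. Co-cultured ICO had 66.1, 57.2 and 48.7 CPM against 14.4, 16.3 and 18.5 CPM in ICO alone, with no overlap, a 3.47-fold increase (log2 1.79 ± 0.14, adjusted p = 1.68e-07). Over 12 alternatives the change lay between 1.68 and 1.90, and the call was lost only with all 18 libraries in 1 fit (adjusted p = 0.0634). Since Hgfac is known as a hepatocyte gene, the 24 hepatocyte markers were read beside it. They summed to 674 to 722 CPM in co-cultured ICO and 262 to 314 CPM in ICO alone, with 4 of 9 tested markers higher and 1 lower, beside 8.59% and 7.96% of all genes. Albumin (Alb) had 1.41 ± 1.29 CPM with HSC and 2.09 ± 0.577 CPM alone, and Apoa2, Cps1, Ahsg, Tat, Cyp3a11, Mug1 and Mup3 were at 0 in all 6 ICO libraries. The markers that rose, seen only once their values were known, were Ass1 of the urea cycle, the fibrinogen chains Fga and Fgb, and transthyretin (Ttr). Their part in the Hgfac result was not tested.

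In HSC libraries, Hgfac had 16.1, 9.26 and 23.1 CPM in co-culture, 6.15, 2.77 and 1.01 CPM in Matrigel alone, 0.726, 0 and 0 CPM on plastic and 55.0, 48.1 and 49.7 CPM at day 0. The day 0 libraries overlapped those of co-cultured ICO, and these fresh libraries also carried 27658 to 28865 CPM of hepatocyte markers (Alb 8718 ± 208 CPM), which fell to 115 to 164 CPM on plastic; whether the day 0 Hgfac came from hepatocyte RNA was not tested. From day 0, Hgfac fell on plastic (log2 -7.77 ± 0.96, adjusted p = 4.98e-05), a size that rests on 11 counts in 1 plastic library and 0 in the others. It was -12.59 without plastic replicate 1 and -7.05 and -7.21 without replicates 2 and 3, and the call held each time. In Matrigel it fell 15.5-fold (-3.96 ± 0.72, adjusted p = 0.00149); the log2 change was -4.77 without Matrigel replicate 1 and -6.22 with the share subtracted, both still called. Co-culture against Matrigel alone gave 5.12-fold more (2.36 ± 0.69, adjusted p = 0.0260). The HSC libraries held Hgfac at nearly their organoid share: 28.1%, 16.1% and 40.3% of the co-cultured ICO mean in co-culture, and 37.6%, 16.9% and 6.16% of the ICO mean in Matrigel alone. With the share subtracted, 0.0828, 0.958 and 0 CPM were left in the co-culture libraries and 0.529, 0.579 and 0.523 CPM in the Matrigel libraries, and the difference turned to -0.17 (adjusted p = 0.930). That call was also lost with no low-count filter (adjusted p = 0.0671), with DESeq2 (0.0901), and without Matrigel replicate 2 (0.0927), co-culture replicate 1 (0.0533) or co-culture replicate 3 (0.0845), over a range of 0.00448 to 0.930. Against day 0, the log2 change of Hgfac in co-cultured HSC was -1.60 ± 0.64, short of the threshold (adjusted p = 0.0564), and -6.39 (adjusted p = 0.000151) after subtraction.

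St14, which encodes matriptase, was an organoid gene that rose modestly in co-culture. ICO with HSC had 270.7, 251 and 257 CPM, and ICO alone had 177, 175 and 190.2 CPM, with no overlap (1.42-fold, log2 0.51 ± 0.09, adjusted p = 0.000440). That call held in 11 of 12 alternatives, with values from 0.48 to 0.55, and was lost with all 18 libraries in 1 fit (adjusted p = 0.719). In HSC, St14 had 93.1, 41.3 and 117 CPM in co-culture, 73.3, 26.5 and 7.56 CPM in Matrigel, 2.24, 1.54 and 3.13 CPM on plastic and 0.628, 1.70 and 0.823 CPM at day 0. The co-culture and Matrigel libraries overlapped each other and lay above all plastic and day 0 libraries.

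St14 was accordingly far higher in co-cultured HSC than at day 0 (log2 6.34 ± 0.93, adjusted p = 0.000285) and than on plastic (5.19 ± 0.84, adjusted p = 0.000965), and in Matrigel HSC than at day 0 (5.05 ± 0.90, adjusted p = 0.00168) and than on plastic (3.89 ± 0.81, adjusted p = 0.00282). Its level as a percentage of the ICO mean was 35.9%, 15.9% and 45.1% in co-culture and 40.6%, 14.7% and 4.19% in Matrigel, close to the organoid shares. After subtraction 20.5, 3.72 and 8.14 CPM were left in co-culture and 11.3, 2.36 and 2.21 CPM in Matrigel. The changes from day 0 were then 3.94 and 2.80, each still called, that over plastic stayed called in co-culture at 2.77, and that of Matrigel over plastic was lost (1.63, adjusted p = 0.120). Co-culture against Matrigel alone was 1.29 ± 0.69 (adjusted p = 0.185), and 2.35 (adjusted p = 0.0150) without Matrigel replicate 1, the mono-culture library with the highest organoid share.

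Spint1, the first Kunitz inhibitor of both proteases, had the same order of groups as St14. Co-cultured ICO had 132, 124 and 127 CPM against 113, 107 and 111 CPM in ICO alone; the libraries did not overlap, but the difference of 0.20 ± 0.08 missed the threshold (adjusted p = 0.117). Co-cultured HSC had 45.3, 27.4 and 52.5 CPM, Matrigel HSC 63.4, 14.2 and 7.90 CPM, plastic HSC 1.12, 0.528 and 1.20 CPM and day 0 HSC 0, 0.272 and 0.823 CPM. Against day 0 this was 6.81 ± 1.03 in co-culture (adjusted p = 0.000296) and 6.2 ± 1.02 in Matrigel (adjusted p = 0.000896), and both calls were lost with the share subtracted (4.45, adjusted p = 0.0980, and 5.26, adjusted p = 0.0749). The rises over plastic, 5.47 ± 0.91 in co-culture and 4.85 ± 0.89 in Matrigel, were lost in the same way (adjusted p = 0.219 and 0.106). Matrigel HSC replicate 1 stood out at 57.6% of the ICO level with a share of 34.3%. Co-culture against Matrigel alone was 0.62 ± 0.70 (adjusted p = 0.540), 1.97 (adjusted p = 0.0113) without that library, and -0.81 with the share subtracted.

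Spint2, the second inhibitor, was the member of the pair that HSC had at day 0 as well, before any contact with organoids. Co-cultured ICO had 876, 792 and 709.5 CPM against 696, 681 and 648 CPM alone (0.22 ± 0.10, adjusted p = 0.165, no overlap; 0.30, adjusted p = 0.0463, without co-cultured ICO replicate 3). Co-cultured HSC had 165, 119 and 332 CPM, Matrigel HSC 280.2, 115 and 45.6 CPM, plastic HSC 64.4, 68.9 and 60.0 CPM and day 0 HSC 81.2, 80.5 and 90.3 CPM. The plastic and day 0 libraries thus held 8.89% to 13.4% of the level in ICO alone, at an organoid share of 0.236% or less. The rise of co-culture over plastic (1.66 ± 0.57, adjusted p = 0.0409) held in 7 of 14 alternatives (0.00150 to 0.172), was lost without any 1 plastic library (1.63, 1.67 and 1.60 for replicates 1 to 3) or without co-culture replicate 1 (1.78) or 3 (1.10), and turned to -4.75 with the share subtracted. Subtraction left 0, 4.46 and 0.173 CPM of Spint2 in co-cultured HSC, below the day 0 level. Matrigel HSC kept 48.5, 24.8 and 25.7 CPM. Co-culture over Matrigel alone was 0.54 ± 0.56 (adjusted p = 0.493), 1.40 (adjusted p = 0.0415) without Matrigel replicate 1 and -4.12 (adjusted p = 0.00266) after subtraction. The co-culture values after subtraction rest on near-0 levels, below every plastic and day 0 library, so their sizes and calls are uncertain.

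Ordered by mean level, Hgf ran from day 0 HSC through Matrigel HSC to co-cultured and plastic HSC, which overlapped, and then to both ICO groups, which also overlapped. Met and Mst1r were highest in the 2 overlapping ICO groups. For Met the 4 HSC groups followed, each overlapping its neighbour, and for Mst1r co-cultured HSC followed without overlap. Hgfac was highest in co-cultured ICO and day 0 HSC, which overlapped, then in ICO alone and co-cultured HSC, which overlapped, and lowest on plastic. St14 and Spint1 had the order co-cultured ICO, ICO alone, co-cultured with Matrigel HSC (overlapping), then plastic with day 0 HSC (overlapping). Spint2 differed from them at the low end, with day 0 HSC overlapping Matrigel HSC and plastic HSC lowest.

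**Figure D3:**
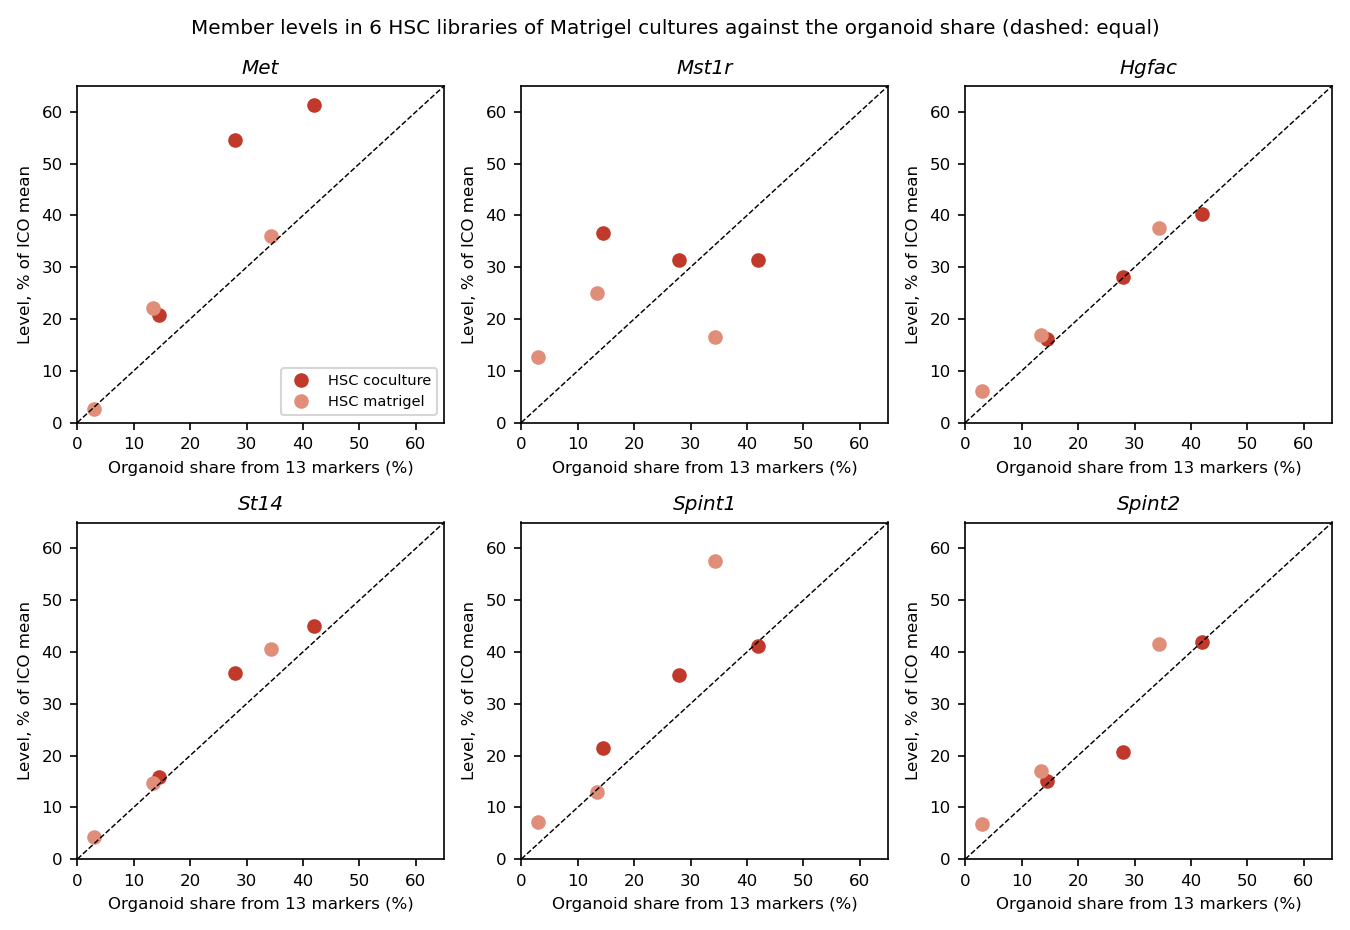
Level of 6 genes as a percentage of the ICO mean of the same culture (y) against the organoid share from 13 biliary genes (x, %) in the 3 co-cultured and 3 Matrigel HSC libraries; the dashed line marks equality. Hgfac, St14 and Spint2 points lie near the line, Met lies above it in the 3 co-culture libraries, and Mst1r stays between 31.3% and 36.6% in co-culture at shares of 14.5% to 41.9%.

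With each cell type alone in Matrigel, the ligand and the other 6 genes stood on opposite sides. HSC alone in Matrigel had 954 ± 173 CPM of Hgf and ICO alone 1.23 ± 1.17 CPM (log2 9.65 ± 0.93, adjusted p = 2.77e-05), and the other 6 genes were lower in HSC, with log2 differences of -1.89 to -2.38, so that all 7 were called where 56.7% of 16233 genes were (30.9% higher and 25.8% lower). With the organoid share subtracted these 6 differences were larger, from -3.00 (Spint1, adjusted p = 0.0870, no longer called) to -4.69 (St14). Subtraction takes a part of the ICO mean out of the HSC libraries, so wider differences follow from the step itself. Without Matrigel HSC replicate 1 they ran from -2.35 to -3.35. The Spint1 difference (-1.89 ± 0.63, adjusted p = 0.0282, range 3.94e-06 to 0.0991) was lost in 7 of 14 alternatives, among them leaving out Matrigel HSC replicate 2 (-1.58) or any 1 ICO library (-1.88, -1.93 and -1.92 for replicates 1 to 3). St14 (-2.27 ± 0.67, adjusted p = 0.0168, range 0.00161 to 0.0623) was lost without Matrigel HSC replicate 2 (-2.11) and with only 6 libraries in the fit. In co-culture, 4 of 7 were called, beside 39.6% of genes (24% higher and 15.6% lower). Hgf was higher in HSC (9.58 ± 0.95, adjusted p = 4.96e-05), Mst1r (-1.54 ± 0.41), Hgfac (-1.78 ± 0.46) and Spint2 (-1.91 ± 0.58, adjusted p = 0.0269) were lower, and Met, St14 and Spint1 missed the threshold. Spint2 lost its call without co-cultured HSC replicate 1 (-1.79) or 2 (-1.63) or any 1 co-cultured ICO library (-1.84, -1.92 and -1.996), with adjusted p from 0.000251 to 0.0981. With the organoid share subtracted, all 7 were called in co-culture, and the 6 negative differences ran from -2.02 (Met) to -8.51 (Spint2). These too were widened by the subtraction itself, so the added calls are no separate result. The Spint2 value rests on the near-0 levels left in co-cultured HSC.

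For HSC with ICO against HSC alone in Matrigel 2 of 7 passed (Hgf lower, Hgfac higher) beside 31.1% of 17020 genes, and without Matrigel replicate 1 the count was 5. It was 1 without Matrigel replicate 2, co-culture replicate 1 or co-culture replicate 3. For ICO with HSC against ICO alone 2 of 7 passed (Hgfac and St14, both higher) beside 16.6% of 13726 genes. No member passed the test of whether the co-culture change differed between HSC and ICO, where 17.2% of 16233 genes did; by edgeR 0 of 7 had an unadjusted p under 0.05 there, DESeq2 also called 0 of 7, and leaving out Matrigel HSC replicate 1 called Spint1 (1.69, adjusted p = 0.00604). Against day 0, 2 of 7 were called on plastic, both lower (58% of genes called, 27.5% higher and 30.5% lower). In Matrigel 2 of 7 were higher and 2 lower (40.8% of genes called, 19.3% higher and 21.5% lower), and in co-culture 3 of 7 were higher and 1 lower (53.7%, with 28.9% higher and 24.8% lower). Against plastic, 5 of 7 were called in Matrigel, all higher (55% of genes called, 29.9% higher and 25.2% lower), and 6 of 7 in co-culture, all higher (42.5%, with 22.9% higher and 19.6% lower). With the organoid share subtracted these counts were 1 and 3. These comparisons share the day 0 and the plastic libraries and are not independent of each other.

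Beyond Hgfac and St14, a list of 15 genes held proteases known or proposed to act on pro-HGF or on its activators, and Plat was the one with the largest called increase in co-cultured over Matrigel HSC. Tissue plasminogen activator (Plat) had 728, 1030 and 738 CPM in co-cultured HSC against 69.1, 34.8 and 17.0 CPM in HSC alone in Matrigel (log2 4.42 ± 0.45, adjusted p = 3.83e-05). The co-culture libraries lay far above the others, and also above co-cultured ICO at 314, 338 and 312 CPM, so their Plat was higher than in the organoids themselves. The urokinase gene Plau had 9.09, 13.2 and 13.4 CPM with ICO and 42.5, 27.4 and 49.7 CPM alone (-1.69 ± 0.24, adjusted p = 0.000127). Pcsk5, a proprotein convertase, was higher (1.37 ± 0.31, adjusted p = 0.00542) and its relative Pcsk6 lower (-1.88 ± 0.49, adjusted p = 0.0134). In all, 2 of 14 tested rose and 2 fell beside 17.3% and 13.8% of all genes, with a median of 0.63 beside 0.03 over all genes. With the organoid share subtracted, 2 of 13 rose and 2 fell with a median of 0, beside 19.2% and 15.5% of all genes. Without Matrigel replicate 1, 5 rose and 2 fell, beside 20.3% and 14.1%.

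Serpins that block these proteases also changed in co-cultured HSC. Protease nexin-1 (Serpine2), an inhibitor of urokinase, tissue plasminogen activator and thrombin, had 698, 972 and 517 CPM in co-cultured HSC and 46.2, 40.2 and 6.05 CPM in HSC alone (4.62 ± 0.63, adjusted p = 0.000418). C1 inhibitor (Serping1), which blocks plasma kallikrein and factor XII, fell to 461 ± 128 CPM in co-culture, against 1195 ± 305 CPM alone (-1.33 ± 0.23, adjusted p = 0.000773). In ICO, Serpine2 had 36.9, 50.0 and 49.8 CPM with HSC against 307, 232 and 240.7 CPM alone (-2.53 ± 0.13, adjusted p = 5.56e-09). The co-culture change of Serpine2 differed between HSC and ICO by 7.04 ± 0.89 (adjusted p = 0.000950) and that of Plat by 4.06 ± 0.54 (adjusted p = 0.000814). The Matrigel HSC libraries had their Serpine2 at organoid shares of 34.3%, 13.4% and 2.96%, where ICO alone averaged 260 CPM. How much of the Serpine2 in Matrigel HSC was organoid RNA was not tested.

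**Figure D4:**
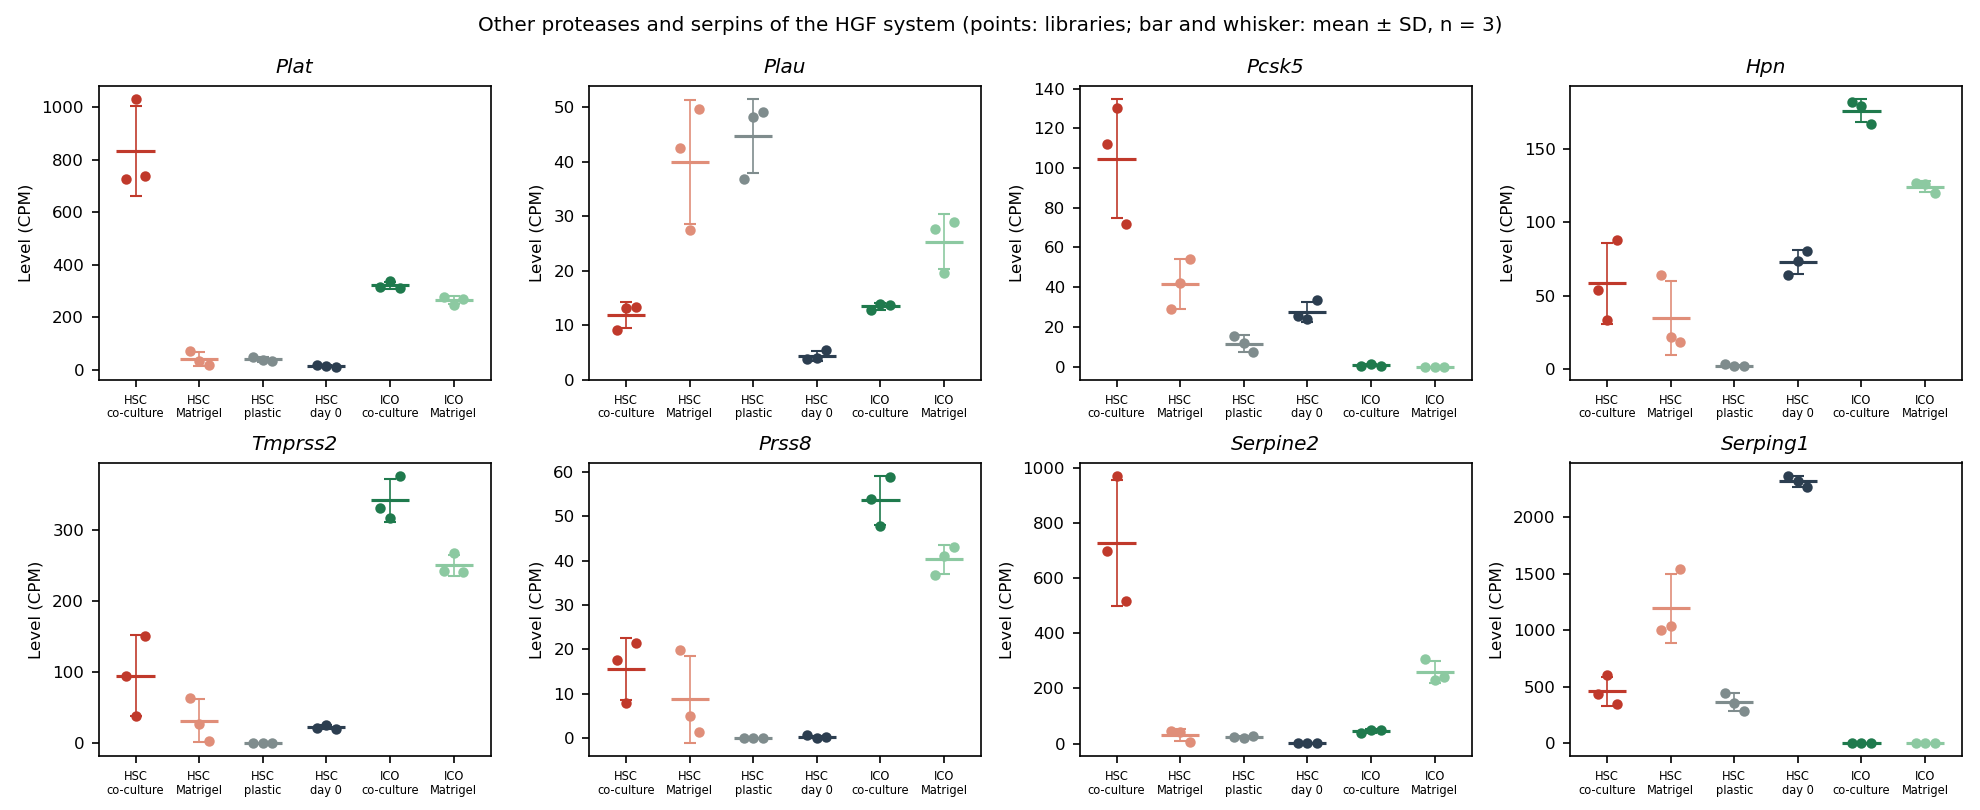
Levels (CPM, linear axis) of 6 further proteases (Plat, Plau, Pcsk5, Hpn, Tmprss2, Prss8) and 2 serpins in each library; points are libraries, and bars and whiskers are the mean ± SD of 3. Plat and Serpine2 are highest in co-cultured HSC and Serping1 in day 0 HSC, while Hpn, Tmprss2 and Prss8 are highest in ICO.

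In organoids, 4 of 8 tested proteases of this list were higher with HSC and 1 lower, beside 8.59% and 7.96% of all genes, with a median of 0.33 beside 0.00. Hepsin (Hpn), which also activates pro-HGF, had 182, 179 and 167 CPM with HSC against 127, 126 and 120 CPM alone (0.49 ± 0.08, adjusted p = 0.000575). Tmprss2 (0.43 ± 0.09, adjusted p = 0.00290), prostasin (Prss8; 0.40 ± 0.11, adjusted p = 0.0218) and Plat (0.27 ± 0.09, adjusted p = 0.0475) were also higher, and Plau was lower (-0.93 ± 0.17, adjusted p = 0.000900). Of 15 genes of the epithelial programme in which matriptase acts, 14 were tested. Of these, 6 rose and none fell, beside 8.59% and 7.96% of all genes. Elf3, an epithelial transcription factor, had 678, 645 and 639 CPM with HSC against 256, 317 and 265 CPM alone (1.21 ± 0.10, adjusted p = 2.77e-07). In HSC, edgeR and DESeq2 each called 0 of 14 of the same list (median 1.00, 3 with an unadjusted p under 0.05 by edgeR). Of all genes, edgeR called 17.3% higher and 13.8% lower there. Without Matrigel replicate 1, 6 of 14 were higher, beside 20.3% of all genes. At day 0, HSC carried plasma proteases of hepatocytes, such as F12 (52.0 CPM) and Plg (257 CPM). In the HSC cultures F12 averaged at most 0.213 CPM and Plg at most 0.193 CPM, and 10 of the 14 tested proteases of the first list fell on plastic beside 30.5% of all genes.

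Downstream of Met, 20 adaptor and effector genes were read. Gab1, the docking protein of Met, fell to 18.7, 18.1 and 19.5 CPM in co-cultured HSC, against 61.0, 60.7 and 67.3 CPM alone (-1.70 ± 0.12, adjusted p = 3.33e-07), near the 19.3 to 22.05 CPM of plastic HSC and below the 128 to 155 CPM of day 0. Rap1a, a small GTPase, had the largest increase of the list (0.85 ± 0.13, adjusted p = 0.000334). In all 9 of 20 were higher and 2 lower in co-cultured HSC, beside 17.3% and 13.8% of all genes, with a median of 0.21 beside 0.03. In co-cultured ICO 1 was higher (Dock1, 0.36 ± 0.11, adjusted p = 0.0281) and none lower, beside 8.59% and 7.96% of all genes. The Gab1 change differed between the cell types by -2.28 ± 0.19 (adjusted p = 1.06e-05).

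Among 14 co-receptors and partners of Met, 5 rose and 1 fell in co-cultured HSC, beside 17.3% and 13.8% of all genes, with a median of 0.76 beside 0.03. The counts were the same with the organoid share subtracted (19.2% and 15.5% of all genes), and without Matrigel replicate 1, 10 rose and 1 fell (20.3% and 14.1%). Syndecan-1 (Sdc1), a proteoglycan that binds HGF, had 370.2, 525 and 619 CPM against 162, 103 and 10.9 CPM alone (2.52 ± 0.69, adjusted p = 0.0214), and Nrp1 fell to 53.2 CPM against 104 CPM (-0.92 ± 0.15, adjusted p = 0.000411). Co-cultured ICO had 793, 850.1 and 737 CPM of Sdc1, above all HSC libraries. In ICO, Erbb2 was higher (0.37 ± 0.09, adjusted p = 0.00768) and Egfr lower (-0.44 ± 0.11, adjusted p = 0.00893), the 2 calls among the 14, beside 8.59% and 7.96% of all genes. Of 7 genes for cleavage of Met at the membrane, Timp3, an inhibitor of the sheddases, had 933, 1270.0 and 1041 CPM in co-cultured HSC against 130.4, 76.1 and 19.3 CPM alone (3.90 ± 0.52, adjusted p = 0.000297), above co-cultured ICO at 609 to 662 CPM. Adam17 also rose, which made 2 of 7 higher beside 17.3% of all genes, and in ICO 0 of 7 passed with edgeR or with DESeq2, and 0 had an unadjusted p under 0.05.

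The 14 genes of ERK feedback and immediate-early response, which lie downstream of Met and of other growth factor receptors alike, mostly rose in co-cultured HSC. In co-cultured HSC 9 of 14 were higher and 1 lower, beside 17.3% and 13.8% of all genes, with a median of 0.75 beside 0.03. Dusp4, an ERK phosphatase, had 26.1, 51.9 and 42.2 CPM with ICO against 12.8, 6.92 and 8.57 CPM alone (2.14 ± 0.27, adjusted p = 4.82e-05), and Fosl1, an AP-1 subunit, had 8.45, 9.62 and 8.96 CPM against 0.669, 0.791 and 0.280 CPM (4.01 ± 0.39, adjusted p = 6.34e-06). Spry1 was the 1 that fell (-1.52 ± 0.19, adjusted p = 6.11e-05). The count was 8 higher and 1 lower with the organoid share subtracted, beside 19.2% and 15.5% of all genes. It was 9 and 1 without Matrigel replicate 1, beside 20.3% and 14.1%.

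In co-cultured ICO only Egr1 passed among these 14 (589 against 434 CPM, 0.43 ± 0.09, adjusted p = 0.00377), beside 8.59% of genes called higher, and the list's median was 0.00. The co-culture change was larger in HSC than in ICO for 6 of 14 and smaller for 1, where 9.08% and 8.08% of all genes were called. Against day 0, 5 of 14 were higher and 6 lower in co-cultured HSC, beside 28.9% and 24.8% of all genes, with a median of -0.44 beside 0.09. Egr1 had 554, 479 and 567 CPM in co-culture, 194, 129 and 269 CPM in Matrigel, 386, 363 and 296 CPM on plastic and 1955, 1711 and 1706 CPM at day 0. Matrigel HSC had the lowest level of this gene in every library, below those of all other HSC groups.

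**Figure D5:**
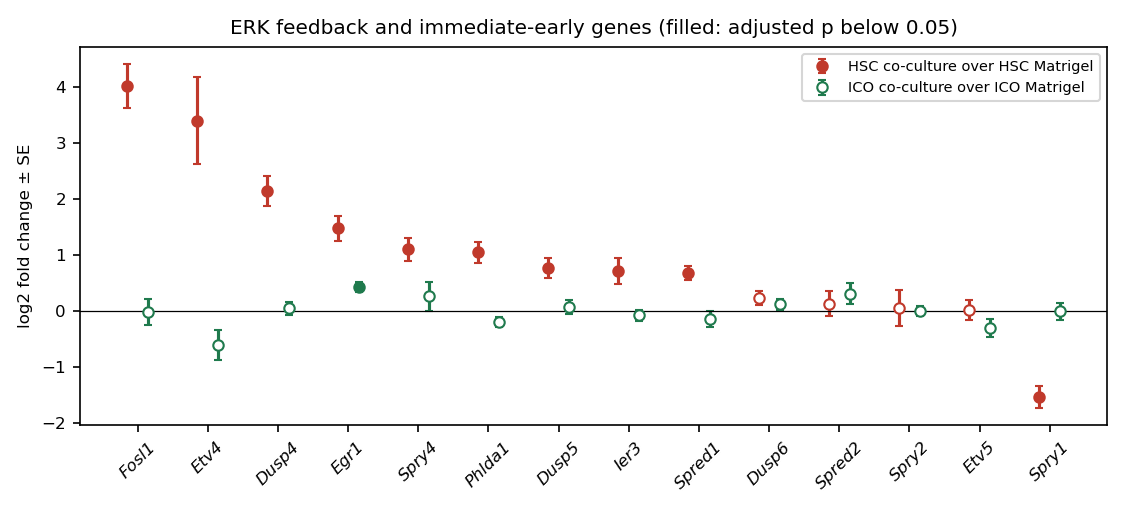
Fitted log2 fold change ± SE of 14 ERK feedback and immediate-early genes for co-cultured over Matrigel HSC (red) and co-cultured over Matrigel ICO (green); filled points had an adjusted p below 0.05. In HSC 9 genes lie above 0 and filled and Spry1 lies below, while in ICO only Egr1 is filled.

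As a description, members at 10 CPM or more in some group were matched to genes with the most similar levels over the 18 libraries (Pearson r of log2(CPM + 1), libraries of 2 cell types and differing organoid share). Hgf was most like Serping1 (r = 0.998), Pdgfra (0.997), a receptor of mesenchymal cells, and Arhgef6 (0.994). St14 was most like Cyb561 (0.995) and Galnt3 (0.994), and Spint1 most like Cd24a (0.994), Scara3 (0.994) and Kcnk1 (0.993). Met followed S100a16 (0.986), Tjp3 (0.979) and Bst1 (0.977), and Spint2 followed Vtcn1 (0.985), Duox2 (0.983) and Epb41l5 (0.981). Hgfac went with Acss3 (0.973), Fggy and Ldhd (both 0.964), which were likewise high at day 0 and in co-cultured ICO: Acss3 had 13.2 ± 0.619 CPM in co-cultured ICO, 7.74 ± 2.12 CPM in ICO alone and 14.8 ± 1.72 CPM at day 0. Within the system, St14 and Spint1 were most alike (r = 0.993), and Hgf ran opposite to Spint2 (r = -0.89).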

How the data were processed

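The authors deposited 1 table of estimated counts per gene for 18 bulk Smart-seq2 libraries. Per the submitters' processing notes, kallisto 0.46.1, DESeq2 1.36.0 and the build GRCm39 were used, with no role stated. No source used here gives the filters or annotation release. Gene symbols are those of the deposited table, and for 43 symbols that occur more than once the entry with the higher total was used. The 7 genes, the gene lists and the tests were chosen with earlier results of these data known.

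The estimated counts were rounded to whole numbers and tested with edgeR 4.0.16 in R 4.3.3 (quasi-likelihood test with TMM factors and the tool's own filter on low counts, Benjamini-Hochberg adjustment over all genes tested, threshold 0.05). HSC groups were fitted over 12 libraries, ICO over 6 and cross-type comparisons over the 12 Matrigel libraries. Fold changes are log2 values; their standard error (SE) is the size of the change over the root of the test's F, so it is not independent of the test. The test was run on counts simulated from its own fitted means and dispersions. These held no uneven organoid RNA, so that run cannot show how the test behaves with it. CPM were computed over all 18 libraries.

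The organoid share used 13 cholangiocyte markers that averaged 100 CPM or more in each ICO group and stayed below 5 CPM in all plastic and day 0 libraries; it was devised with the data in view. Subtraction removed that share of the ICO mean from each gene. From each list the called gene with the largest increase and decrease at a mean of at least 10 CPM was named; a few results under these rules are left out. Other list genes given with values (Plau, Pcsk5, Fosl1, Egr1, Tmprss2, Prss8, Plat in ICO, Sdc1 in ICO, Adam17, Mst1, F12 and Plg) were chosen after their values were seen. Alternatives were RLE scaling, no or a stricter filter (5 CPM in 3 libraries), the replicate block, all 18 or only 6 libraries, DESeq2 1.42.0, share subtraction and leaving out each library. List counts with the share subtracted and without Matrigel HSC replicate 1 were added after seeing the data.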

Additional observations from a re-analysis of the deposited data

How the results depend on the processing

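Among single-gene values under an alternative, 859 kept their direction and side of the threshold, 34 passed it newly, 58 no longer passed and 36 changed sign. Without the low-count filter, 1 member was called in co-cultured against Matrigel HSC, Mst1r in Matrigel HSC against day 0 was -0.0430 and Met in co-cultured against lone ICO was 0.0148. With RLE scaling and DESeq2 that Mst1r value was -0.0235 and -0.0296. With all 18 libraries in 1 fit, 7 members were called in co-cultured HSC against day 0 and 0 in ICO (DESeq2 called 2), where Met was 0.0324; genes called in ICO then numbered 546 against 2272. With only the 6 libraries compared, 4 members were called on plastic against day 0, 7 in co-cultured HSC against day 0 and 7 in co-cultured HSC against co-cultured ICO, and 3453 against 5290 genes in co-cultured against Matrigel HSC. ICO counts were 1427 without ICO alone replicate 1 and 1506 without co-cultured ICO replicate 1.

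With the organoid share subtracted, called members were 2 in Matrigel HSC against day 0, 1 in Matrigel and 3 in co-cultured HSC against plastic, 7 between cell types in co-culture and 1 for the difference of co-culture changes. The count between cell types was raised by the subtraction itself, which takes ICO levels out of the HSC libraries. Signs turned for Met (-1.50), Mst1r (-1.12) and Spint2 (-0.95) in Matrigel HSC against day 0, Mst1r (-0.15) and Spint2 (-5.07) in co-cultured HSC against day 0, and Spint2 against plastic (-0.63 in Matrigel, -4.75 in co-culture). They also turned in co-cultured against Matrigel HSC for Hgfac (-0.17), Spint1 (-0.81) and Spint2 (-4.12), and in the difference of co-culture changes for Hgf (0.16), Hgfac (-1.99), Spint1 (-1.04) and Spint2 (-4.51). The subtraction removes more Spint2 than day 0 HSC held, so its values there are uncertain.

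Leaving out 1 library, called members ranged from 1 to 5 in co-cultured against Matrigel HSC and from 0 to 1 for the difference of co-culture changes. In Matrigel HSC against day 0, Met ranged from -0.00144 to 1.23, Mst1r from -0.29 to 0.36 and Spint2 from -0.0621 to 1.22. Hgf in co-cultured against plastic HSC ranged from -0.0265 to 0.50, and Met in ICO from -0.0512 to 0.0715. The difference of co-culture changes ranged from -0.85 to 1.33 for Hgf, -0.13 to 1.69 for Spint1 and -0.29 to 1.09 for Spint2. Causes were not tested.

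Same-numbered libraries correlated between -0.25 and 0.0590 in their deviations from group means, so the numbers were not treated as pairs, although co-cultured HSC and ICO share a culture code (-0.00983 to 0.0356 between these). A replicate block left counts of called members within 1.5 times in every comparison, and lost Met in Matrigel against plastic HSC (3.01, adjusted p = 0.0600) and Spint2 in co-cultured against plastic HSC (1.64, adjusted p = 0.0674). Hgf in ICO, at 0 to 30 counts a library, is too low for a change to be read at this depth.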
